A study of Mus musculus with 19 samples.

Results

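Ribosome footprints, the stretches of mRNA that ribosomes shield from RNase, were compared between B16-F10 cells with a Mettl5 knockout (KO) and B16-F10 cells with a scrambled control (SCR). B16-F10 is a melanoma line of C57BL/6 mice. The comparison used the 4 footprint libraries of the 19 samples in the series, 2 of SCR and 2 of KO cells, chosen by the columns of the footprint count table. The 4 input RNA libraries of the same 2 genotypes were used only beside them, and the blood and tumour samples were not analysed here. Both genotypes were grown in the same medium. Footprints came from cells given cycloheximide (100 µg/ml, 8 min) before lysis and from lysates cut with RNase I (15 units per optical density unit, 40 min, 22 C). The KO columns of the count table are named POOL, but whether the KO cells are 1 clone or a mixed population is not stated in the labels, nor whether replicate libraries came from separate cultures. The p-values then measure only the spread between these libraries, which may be technical.

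METTL5 works with TRMT112 and adds N6-methyladenosine to the 18S RNA of the small ribosomal subunit, at a site close to where mRNA is decoded. A footprint count of a gene rises with the amount of its mRNA and with the number of ribosomes on each mRNA, so it is a measure of synthesis of a protein rather than of RNA alone. Footprint libraries also hold fragments of noncoding RNA, such as pieces of ribosomal RNA and of small structured RNAs that resist RNase or sit in large particles. Such fragments do not show translation.

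Total counts were 28059683 and 31301806 in SCR footprints 1 and 2 and 14555963 and 21366608 in KO footprints 1 and 2, so KO footprints 1 was the shallowest library. Levels are given as CPM (counts scaled to a common total per library), and fold changes as log2 differences, KO minus SCR, from edgeR. Each standard error (SE) is an approximation made here, since edgeR reports none. It is the size of the log2 difference divided by the square root of its F statistic. For genes with very few counts in a genotype it can be too small. The fits rescale the libraries by factors of 0.97 and 0.96 (SCR) and 1.04 and 1.03 (KO), so a fitted change lies slightly below the ratio of the CPM values. Mettl5 itself had 14.6 and 13.2 CPM in SCR against 11.5 and 12.0 CPM in KO cells, a log2 difference of -0.35 (SE 0.09) with an adjusted p of 0.112. Footprint counts of the targeted gene therefore did not separate the genotypes at the threshold, and in input RNA the log2 difference was -0.56 (SE 0.13, adjusted p = 0.0284). Melanocyte identity was present in every library. All 24 genes of a list of pigment genes were tested, and their summed level was 71598 and 78980 CPM in SCR against 71681 and 65216 CPM in KO cells.

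KO cells had 86 rises and 301 falls among 16878 tested genes at an adjusted p below 0.05 (2.29% in all, 0.510% higher and 1.78% lower). At least a 2-fold change was fitted for 26 of the rises and 74 of the falls, and the lowest adjusted p of any gene was 0.0105. Protein-coding genes made up 66 of the rises and 279 of the falls, of 11769 tested. In input RNA, 9.56% of 20025 genes rose and 7.21% fell. Of the 86 footprint rises, 38 were also rises in input RNA (44.2% of the footprint rises and 1.98% of the input rises), and 121 of the 301 falls were also falls there (40.2% and 8.39%). The count rests on all 4 libraries, since it was 25 without KO footprints 1, 57 without KO footprints 2, 128 without SCR footprints 1 and 44 without SCR footprints 2. It was 1363 with DESeq2. The input RNA counts also rest on single libraries, with 1031 genes called without SCR input 1 and 1417 without SCR input 2, against 3358 (16.8%) with all.

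Whether a footprint change differed from the input RNA change was tested over both assays. It did for 4.19% of 23211 genes, with 0.788% higher and 3.40% lower in footprints. This test shares its libraries with both single comparisons. It called 973 genes with all libraries but 0 without KO input 1, 3 without SCR input 1 and 0 without SCR input 2, where 3645, 3842 and 3804 genes had an unadjusted p below 0.05. Adjusted p-values of that test below are from the fit with all libraries.

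**Figure D1:**
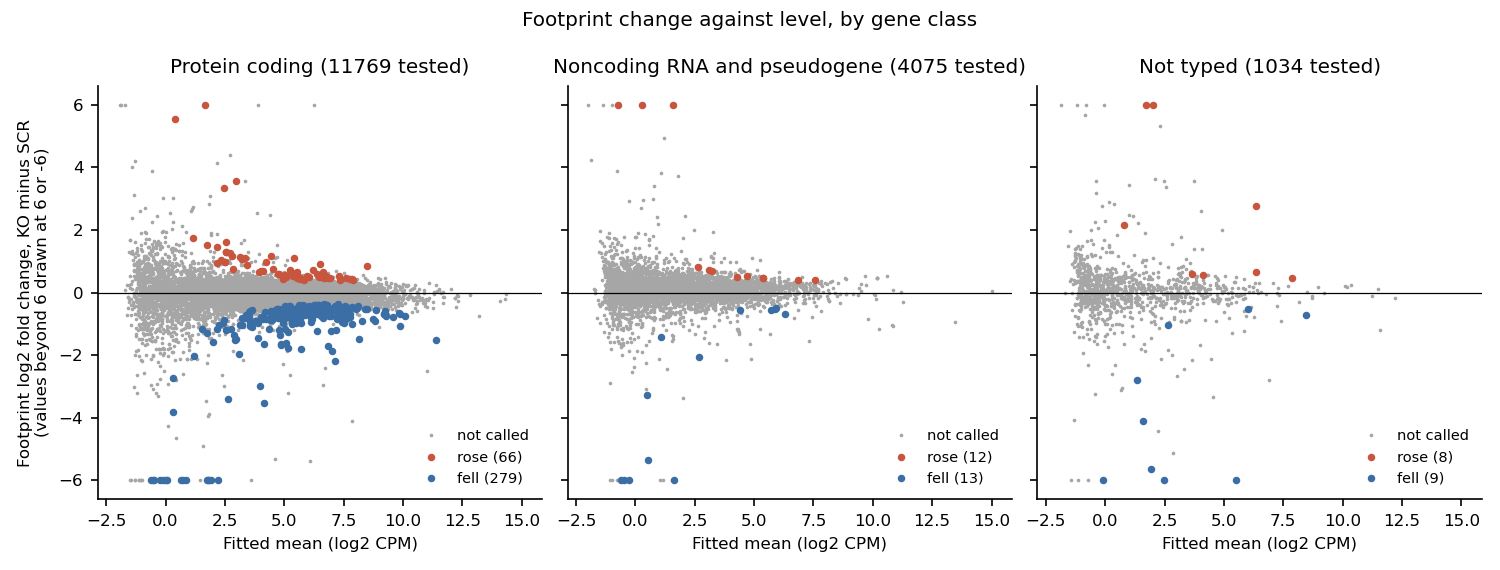
Fitted mean footprint level in log2 CPM (horizontal axis) against the log2 fold change of KO minus SCR (vertical axis, drawn no further than 6 in either direction) for every gene tested, in 3 panels by gene class. Protein-coding genes hold 66 of the 86 rises and 279 of the 301 falls.

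**Figure D2:**
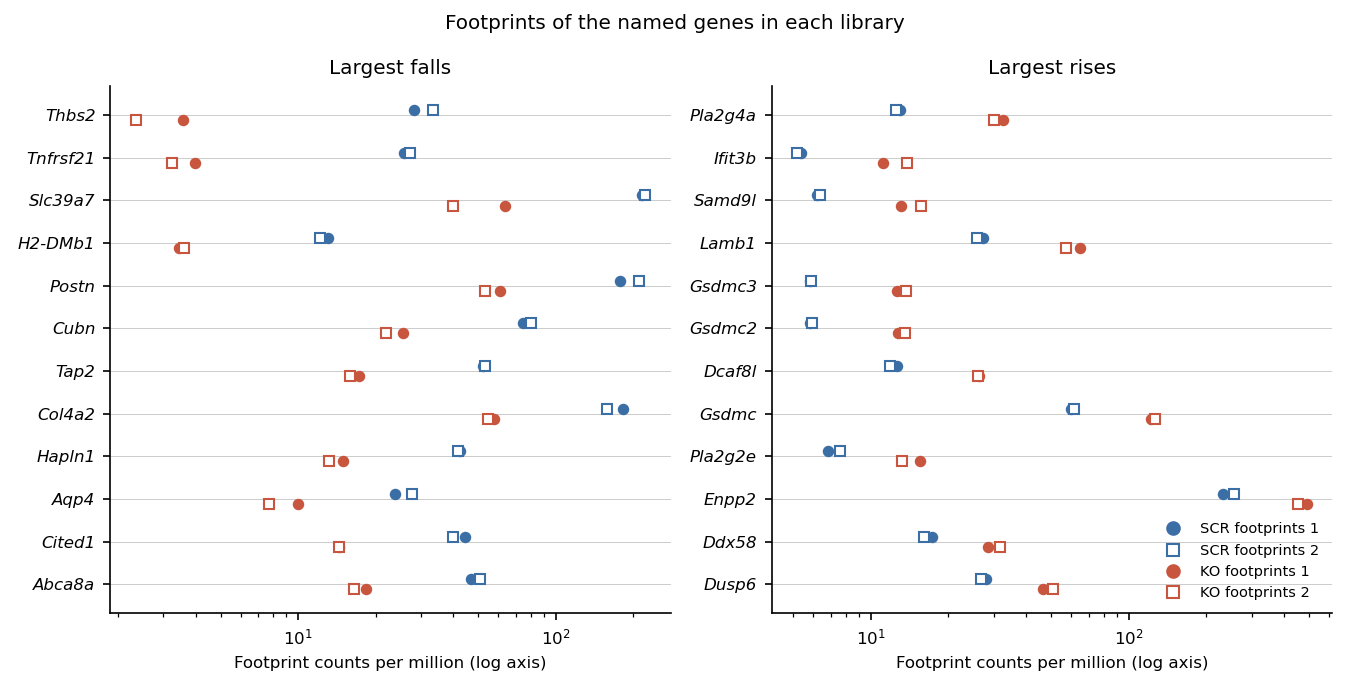
Footprint CPM (log axis) of the 12 largest falls and the 12 largest rises in each of the 4 libraries, with circles for replicate 1 and squares for replicate 2. The SCR and KO values of a gene do not overlap, which the rule for choosing these genes required.

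Genes of the extracellular matrix, the protein scaffold that cells secrete around themselves, held several of the largest falls. Of 29 list members tested, 12 fell and 2 rose, with a median log2 difference of -0.46 against 0.01 over all genes tested. Over all genes tested 1.78% fell and 0.510% rose, and these shares stand beside the count of every list below. A single call in a list is not read as a result about that list. Thbs2, a secreted matricellular glycoprotein, had 28.3 and 33.4 CPM in SCR against 3.57 and 2.34 CPM in KO cells. Its change was -3.52 on the log2 scale (SE 0.22, adjusted p = 0.0155), the largest fall among genes of at least 3 log2 CPM that the naming rule admits. Postn, which encodes periostin, had 178 and 211 CPM in SCR against 61.0 and 53.4 CPM in KO cells, and Hapln1, which links hyaluronan to proteoglycans, had 42.6 and 41.9 against 15.0 and 13.2 CPM. That the KO libraries of these 3 genes lie below both SCR libraries was required by the rule that named them. Their input RNA fell as well. Thbs2 input RNA had 83 and 103 counts in SCR and 0 in both KO libraries. The input RNA log2 differences of Postn and Hapln1 were -2.84 and -2.19. Tested against input RNA, footprints of Thbs2, Postn and Hapln1 had adjusted p-values of 0.0311, 0.0303 and 0.0645. Footprints of Postn thus fell less than its input RNA.

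The 2 main chains of basement membrane collagen fell side by side. Col4a1 had 427 and 385 CPM in SCR against 159 and 151 CPM in KO cells (log2 difference -1.50, SE 0.07, adjusted p = 0.0124). Col4a2 had 183 and 158 against 57.8 and 54.7 CPM (-1.71, SE 0.09, adjusted p = 0.0124). Input RNA of Col4a1 and Col4a2 fell as well, by 1.30 and 1.09 on the log2 scale. The test of footprints against input RNA gave adjusted p-values of 0.134 and 0.0208. Basement membrane laminins did not move together: Lama5 (-0.84) and Lamb2 (-0.67) fell, while Lamb1 rose from 27.2 and 25.9 to 64.7 and 57.0 CPM (1.09, SE 0.08, adjusted p = 0.0195). Nid2, a nidogen that bridges laminin and collagen (-1.08), Agrn (-0.68), Fbln1 (-0.67), Col5a1 (-0.57) and Col4a5 (-0.54) also fell, and Npnt, an integrin ligand, rose (0.70). Fn1 (-0.18, adjusted p = 0.139) and Sparc (-0.19, adjusted p = 0.277) did not pass the test.

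Among 26 matrix proteases and their inhibitors, Adamts4, which cleaves aggrecan, fell from 218 and 213 to 125 and 116 CPM (-0.95). Loxl2, which crosslinks collagen, rose from 2.21 and 2.49 to 7.42 and 6.46 CPM (1.45, SE 0.15, adjusted p = 0.0319). The list median was -0.21. Of 24 integrins and adhesion genes, 4 fell and none rose (median -0.22). Itga5, a fibronectin receptor subunit, fell by 0.72, Itgb3 by 0.48 and Gjb2, a gap junction protein, by 0.96 on the log2 scale. The fourth was Itga3, a laminin receptor subunit, with 177 and 200 counts in SCR and 0 in both KO libraries.

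Of 22 receptor tyrosine kinases tested, 3 fell and none rose (median -0.31). Kit, the receptor for stem cell factor in melanocytes, had 35.0 and 38.2 CPM in SCR against 18.5 and 15.8 CPM in KO cells (-1.20, SE 0.10, adjusted p = 0.0276). Axl (38.5 and 37.5 against 26.2 and 24.8 CPM) and the collagen receptor Ddr1 (100 and 96.4 against 68.8 and 62.4 CPM) each changed by -0.69. Another collagen receptor, Ddr2 (-0.24, adjusted p = 0.152), Met (-0.05) and Pdgfra (0.40) did not pass. Input RNA of Axl fell more, by 1.97 on the log2 scale, and the test of footprints against input RNA gave an adjusted p of 0.0140.

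Of 24 genes that report on MAP kinase signalling, edgeR called 1, where 7 had an unadjusted p below 0.05 and DESeq2 called 2. The 1 was Dusp6, a phosphatase of ERK. It rose from 28.1 and 26.7 to 46.4 and 50.9 CPM (0.72, SE 0.08, adjusted p = 0.0333), and the list median was 0.09, which turned to -0.01 in 1 of the fits that leave out a library. Enzymes of lipid mediators went both ways. Pla2g4a, which frees arachidonic acid from membranes, rose (366 and 390 counts in SCR, 475 and 640 in the shallower KO libraries, 1.18), and Enpp2 (autotaxin), which makes lysophosphatidic acid, rose from 233 and 255 to 489 and 455 CPM (0.84). Ptgds, a prostaglandin D synthase, was among the most covered genes and fell from 3824 and 3822 to 1571 and 1327 CPM (-1.51, SE 0.11, adjusted p = 0.0195). Of 21 members of this list, these 2 rose and this 1 fell. In input RNA, Pla2g4a rose by 1.66, Enpp2 rose by 1.70 and Ptgds fell by 0.78 on the log2 scale. The test of footprints against input RNA gave adjusted p-values of 0.168, 0.0205 and 0.0258. Footprints of Enpp2 thus rose less than its input RNA, and those of Ptgds fell more. Outside the list, the secreted phospholipase Pla2g2e rose as well (6.81 and 7.57 against 15.5 and 13.2 CPM).

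Gasdermin C genes, which encode pore-forming proteins, were among the rises. Gsdmc had 60.0 and 61.5 CPM in SCR against 122 and 126 CPM in KO cells (0.92, SE 0.06, adjusted p = 0.0155). Gsdmc2 and Gsdmc3 had nearly equal counts (163 and 185 against 163 and 183 in SCR, 186 and 291 against 185 and 292 in KO cells), so their changes of 1.06 and 1.07 cannot be taken as 2 separate results. A further copy, Gsdmc4, chosen here after its values were seen, had 229 and 266 counts in SCR, 398 in KO footprints 2 and 0 in KO footprints 1. Dcaf8l rose by 0.98 on the log2 scale, from 12.7 and 11.9 to 26.2 and 26.1 CPM.

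The largest falls outside these groups included membrane proteins of several kinds. Tnfrsf21, death receptor 6, had 25.8 and 27.1 CPM in SCR against 3.98 and 3.23 CPM in KO cells (-2.99, SE 0.12, adjusted p = 0.0124). Aqp4, a water channel, fell by 1.66 on the log2 scale. Input RNA of both fell too, with log2 differences of -3.87 for Tnfrsf21 (adjusted p = 0.000367) and -2.66 for Aqp4 (adjusted p = 0.00121). For these genes the test of footprints against input RNA gave adjusted p-values of 0.105 and 0.0722. Cubn, an endocytic receptor, fell from 74.8 and 80.5 to 25.5 and 22.0 CPM (-1.82, SE 0.09), while its input RNA difference was -0.20 (adjusted p = 0.124). The test of footprints against input RNA gave an adjusted p of 0.0140 for Cubn. Footprints of the zinc transporter Slc39a7 fell from 216 and 223 to 63.9 and 39.8 CPM (-2.20, SE 0.23, adjusted p = 0.0319). Its input RNA difference was 0.05 (adjusted p = 0.700), and the test between both gave an adjusted p of 0.0205. Of 27 genes of zinc and copper handling, Slc39a7 and Slc39a1 (-0.57) fell and none rose (median -0.21).

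ATP-binding cassette transporters, which move lipids and xenobiotics across membranes, had 6 falls and no rise among 24 tested (median -0.37). Abca8a had 46.8 and 51.1 CPM in SCR against 18.3 and 16.5 CPM in KO cells (-1.60). Abcc2 (-0.98), Abca2 (-0.74), Abca7 (-0.61), Abcb8 (-0.58) and the cholesterol exporter Abca1 (-0.53) also fell. The input RNA of Abcb8 moved the other way (0.30, adjusted p = 0.0178).

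Some antigen presentation genes fell (4 of 18) and some interferon-stimulated genes rose (5 of 40), with most members of both lists not called. MHC class I molecules show peptides made in the cytosol to T cells, and the peptides reach them through the TAP transporter. Both TAP subunits fell: Tap2 from 52.1 and 53.4 to 17.3 and 15.9 CPM (-1.78, SE 0.07, adjusted p = 0.0124) and Tap1 from 29.1 and 30.4 to 18.7 and 18.3 CPM (-0.79). Tapbp, tapasin, which holds empty MHC class I at TAP, fell from 57.4 and 57.3 to 31.9 and 31.5 CPM (-0.96), and the class I heavy chain H2-K1 from 40.3 and 43.5 to 28.1 and 25.3 CPM (-0.76). These were the 4 falls among 18 list members, with no rise and a median of -0.11. Input RNA of Tap2, Tap1, Tapbp and H2-K1 fell too, by 2.95, 1.60, 0.76 and 1.26 on the log2 scale. The test of footprints against input RNA gave adjusted p-values of 0.0366, 0.0527, 0.561 and 0.127 for them. Footprints of Tap2 fell less than its input RNA. The second heavy chain, H2-D1 (-0.12, adjusted p = 0.435), and the light chain B2m (-0.06, adjusted p = 0.736) did not pass the test. H2-DMb1, part of the peptide editor of MHC class II, fell by 1.95, and its input RNA fell by 2.53.

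Of 40 interferon-stimulated genes tested, 5 rose and none fell, with a median of 0.38. The chemokine Cxcl10 had 51.8 and 56.3 CPM in SCR against 94.5 and 96.8 CPM in KO cells (0.71, SE 0.07, adjusted p = 0.0319). Ifit3b rose from 5.38 and 5.18 to 11.2 and 13.8 CPM (1.14), Samd9l from 6.20 and 6.36 to 13.1 and 15.7 CPM (1.09), Ifi27 from 49.8 and 49.5 to 74.9 and 78.2 CPM (0.52), and Ddx58, which encodes the RNA sensor RIG-I, from 17.3 and 16.1 to 28.4 and 31.6 CPM (0.74). Ifit3 (1.11, adjusted p = 0.0521) and Ifit1 (0.95, adjusted p = 0.0680) lay above 0 without passing. In input RNA the list had a median of -0.18, with 1 rise and 9 falls among 36 tested. The 5 genes that rose went both ways there. Input RNA rose for Cxcl10 (0.55, adjusted p = 0.0341) and lay above 0 for Ifit3b (0.60, adjusted p = 0.203). It fell for Ddx58 (-0.84, adjusted p = 0.00698) and Ifi27 (-0.60, adjusted p = 0.0134) and lay below 0 for Samd9l (-0.25, adjusted p = 0.136). The test of footprints against input RNA gave adjusted p-values of 0.714, 0.366, 0.0143, 0.0205 and 0.0205 for Cxcl10, Ifit3b, Ddx58, Ifi27 and Samd9l.

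Interferon-stimulated genes are known to be driven through a promoter element recognised by STAT and IRF factors. Its core was searched as GAAA, any pair of bases (NN) and GAAA, on both strands, from 250 bases before to 50 bases after the start in the RefSeq promoters of GRCm38.p6, and 3.99% of 27025 genes held it. Only 29 of the 40 list members matched that table, too few for a share over the list, so that check is void and not given. Of the 5 genes that rose, Cxcl10, Ifit3b and Ddx58 held the core, Samd9l did not, and Ifi27 was not matched. The match in Ddx58 begins 2 bases after the start. The windows of Cxcl10 and Ifit3b are shown because these members moved together; each is 30 bases read along the gene's strand, with the core, or its reverse complement, in capitals. A match is a description and not a site shown to be used.
Cxcl10, chr5:92349083-92349112, minus strand: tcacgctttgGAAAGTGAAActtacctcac
Ifit3b, chr19:34607759-34607788, plus strand: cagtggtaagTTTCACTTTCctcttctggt
Ifit3b, chr19:34607793-34607822, plus strand: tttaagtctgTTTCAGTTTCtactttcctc

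Melanocyte genes were mostly not called. Of 24 melanosome and pigment genes edgeR called 1, where 11 had an unadjusted p below 0.05 and DESeq2 called 10. This was Oca2, a melanosomal channel, which fell (15.1 and 13.9 against 8.11 and 8.05 CPM, -0.95), with a list median of -0.12. Dct, one of the enzymes of melanin synthesis, had 547999, 643268, 313275 and 432102 counts in SCR 1, SCR 2, KO 1 and KO 2 (-0.05, adjusted p = 0.857). Pmel, the fibril protein of melanosomes, had 10745 and 11694 CPM in SCR against 7811 and 6667 CPM in KO cells, which missed the threshold (-0.74, adjusted p = 0.0678). Among 19 lineage regulators, Kit and Cited1, a transcriptional coregulator (44.3 and 40.0 against 14.4 and 14.4 CPM, -1.66), fell. The lineage factors Mitf (71.8, 71.4, 72.8 and 71.5 CPM in SCR 1, SCR 2, KO 1 and KO 2) and Sox10 (122, 112, 123 and 114 CPM) had log2 differences of -0.10 and -0.09 and did not pass (adjusted p = 0.321 and 0.478).

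Of the stress lists, the p53 targets held 4 calls among 26 tested, beside 2.29% over all genes. In this list Eda2r (-1.03), Cdkn1a, the cell-cycle inhibitor p21 (-0.58), and Ephx1 (-0.58) fell and Ckap2 rose (0.43), while 21 of the 26 lay below 0, 13 had an unadjusted p below 0.05 and DESeq2 called 8. Cdkn1a had 128 and 125 CPM in SCR against 89.3 and 93.7 CPM in KO cells with an input RNA difference of 0.03. Of 24 genes of the unfolded protein response, the sensors Atf6 (245 and 270 against 168 and 157 CPM, -0.78) and Ern1 (-0.56) fell. Ddit4, an inhibitor of mTORC1, was the 1 fall among 30 genes of the ATF4 response (-0.83), and Adm and the glucose transporter Slc2a1 were the 2 falls among 32 hypoxia and glycolysis genes (-0.82 and -0.46). The unfolded protein, ATF4 and hypoxia lists had 11, 13 and 9 genes at an unadjusted p below 0.05, and DESeq2 called 9, 7 and 6.

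Few genes of the translation machinery passed by edgeR. Of 34 proteins of the small ribosomal subunit, 1 fell: Rps29, from 84.6 and 85.6 to 60.5 and 63.1 CPM (-0.57, SE 0.06, adjusted p = 0.0323). None of 48 large subunit proteins and none of 52 initiation and elongation factors passed. Their medians were -0.15, -0.12 and 0.12. Nearest to the threshold were Rpl18 (-0.32, adjusted p = 0.0619) and Abce1, a ribosome recycling factor (0.35, adjusted p = 0.0688). In input RNA the same small and large subunit proteins had medians of 0.37 and 0.38, with 30 of 34 and 40 of 48 called higher. Rps29 input RNA rose by 0.44 on the log2 scale, and its footprints differed from its input RNA with an adjusted p of 0.0140. None of 44 DNA replication genes (median 0.11), 34 mitosis genes (0.08), 48 replication-dependent histone genes (0.03) or 13 mitochondrially encoded proteins (0.02) was called. The last 2 medians changed sign in 2 of the fits that leave out a library. Without a call by edgeR, these 4 lists had 11, 4, 12 and 0 genes at an unadjusted p below 0.05 and 4, 0, 4 and 0 calls by DESeq2. The small subunit proteins had 14 and 6, the large subunit proteins 16 and 6, and the initiation and elongation factors 17 and 5. In these lists 29 of 34, 32 of 48 and 11 of 52 genes lay below 0.

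**Figure D3:**
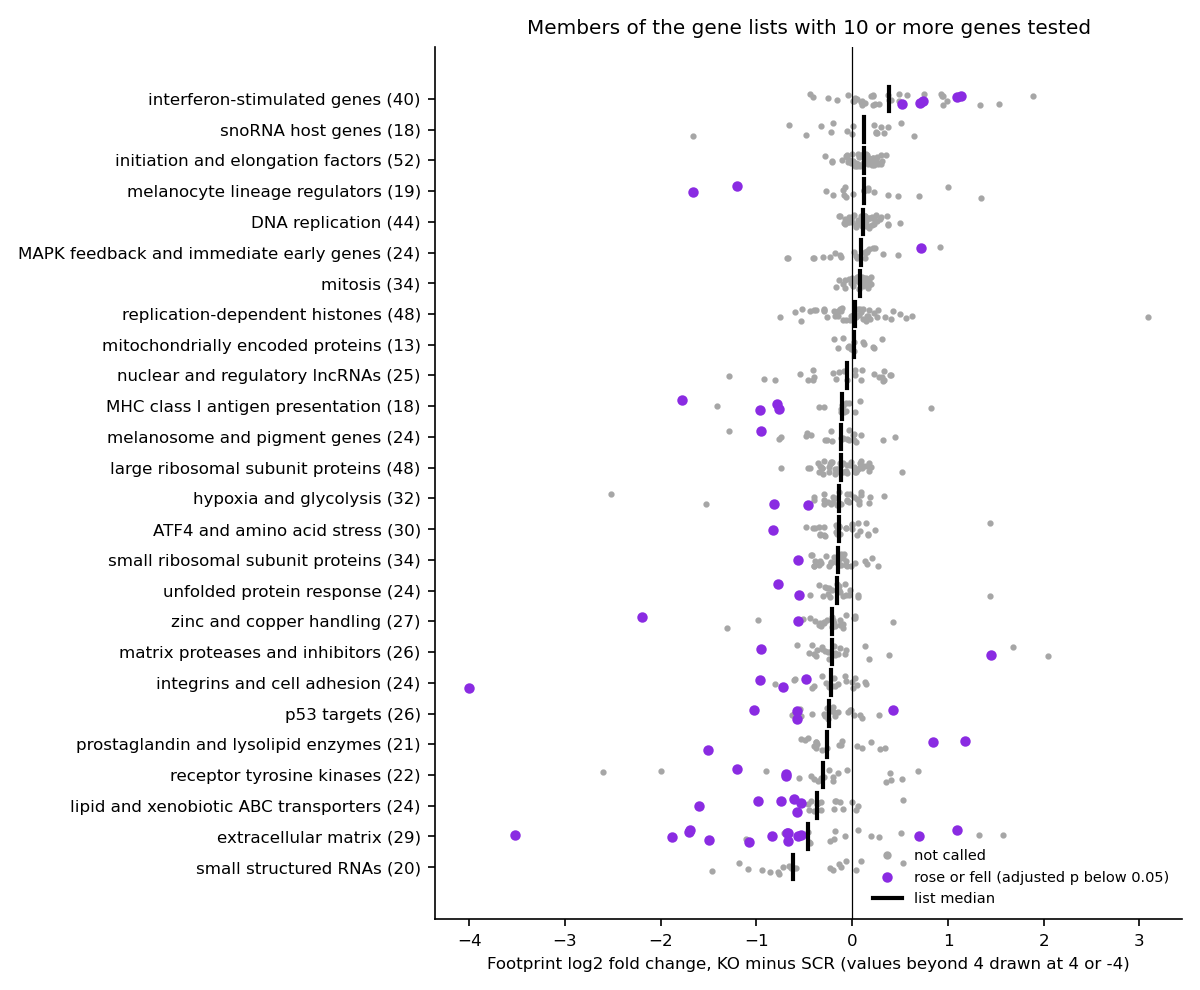
Log2 fold change of footprints, KO minus SCR, for each tested member of the lists with at least 10 genes tested, with members past the threshold in violet and the list median as a bar. Interferon-stimulated genes have a median of 0.38 and extracellular matrix genes one of -0.46; Itga3 lies beyond the axis and is drawn at its edge.

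Markers of blood cells were low, while Pdgfrb and Pdgfra among the fibroblast markers were not. Of 11 blood cell markers 8 had under 10 counts in every library and Ptprc had 7, 10, 3 and 4 counts. Their summed level was 9.73 and 10.4 CPM in SCR against 4.53 and 5.94 CPM in KO cells. Cd68 fell (6.91 and 6.39 against 4.05 and 3.70 CPM, -0.89). Of 12 fibroblast and endothelial markers 5 were tested and none passed by edgeR (3 had an unadjusted p below 0.05, and DESeq2 called 1), and their summed level was 81.3 and 81.9 against 96.3 and 78.7 CPM. Pdgfrb, a growth factor receptor of fibroblasts and pericytes, held 49.2, 50.9, 42.5 and 39.3 CPM of it in SCR 1, SCR 2, KO 1 and KO 2 (-0.40, adjusted p = 0.0587). Pdgfra went the other way (0.40, adjusted p = 0.112), with a fitted mean of 5.09 log2 CPM beside 5.52 for Pdgfrb. Of the 5 tested, 4 lay above 0 and 1 below, with a median of 0.40. The part of other cells in the matrix and antigen presentation results was not tested.

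Genes with 0 counts in a single library were looked at next, since a count of 0 beside a well-covered replicate is a value to check before any fold is read. A total of 154 genes (0.278% of 55359) had 0 in exactly 1 of the 4 libraries and at least 20 counts in its replicate: 22 in SCR 1, 25 in SCR 2, 70 in KO 1 and 37 in KO 2. For each, an expected count was taken from the replicate and the ratio of the totals. The expected count was 50 or more for 5, 8, 20 and 15 of them. The library with the lowest total had the most such genes, and the same rule gave 113 genes after all libraries were thinned to that total. Of the 148 that were tested, none was called by edgeR, 0 had an unadjusted p below 0.05 and DESeq2 called 0. The rule picks genes whose replicates differ widely, so the lack of calls follows from the rule and is not a result.

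The highest expected count was 68948, for Rnu11, the U11 RNA of the minor spliceosome. Rnu11 had 0, 76915, 23744 and 46963 counts in SCR 1, SCR 2, KO 1 and KO 2. The gene Gm28872 had the same counts in the last 3 libraries and 162565 in SCR 1, so together they had 162565, 153830, 47488 and 93926. In SCR 1 the count of Gm28872 was near the sum of both genes in SCR 2. Gm6951 (0, 5330, 1672 and 2448) and Rbm42, an RNA-binding protein (0, 549, 370 and 409), were also at 0 in SCR 1. At 0 in KO 2 were Grk1, a rhodopsin kinase of photoreceptors (1209, 1769, 1058 and 0), and one of 2 gene IDs named Nnt, a mitochondrial transhydrogenase (310, 739, 750 and 0).

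The counts of both Nnt entries can be set side by side. The other entry had 3717, 3728, 1063 and 2457 counts, and the sum of both was 144, 143, 125 and 115 CPM. In input RNA the entry that is 0 in KO 2 held 5845 counts in SCR 1 and 0 in the other 3 libraries, while the other entry held 432, 6860, 7368 and 6552. The sum in input RNA was 6277, 6860, 7368 and 6552. Rps23-ps2, at 0 in SCR 2 (287, 0, 125 and 186), overlaps Rps23rg1 in RefSeq (GRCm38.p6), and that gene had 239 counts in SCR 2 and 0 in the other 3. This pair was named after its values were seen. In 3 of the 154 genes an overlapping gene held at least 10 counts in the library at 0 and none elsewhere.

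In KO 1 the highest expected counts were those of Ppp3r2, a testis form of a calcineurin subunit (1182, 612, 0 and 594), Snhg4, a snoRNA host gene (1426, 973, 0 and 572), Gm43064 (371, 568, 0 and 543) and Gm28043 (810, 854, 0 and 516). Ppp3r2 lies within Grin3a in RefSeq, which had 3, 5, 5 and 3 counts. Gm28043 overlaps Rnf8, Cmtr1 and Ccdc167, and while Gm28043 was at 0 in KO 1, Ccdc167 had 86, 94, 196 and 73 and Rnf8 209, 242, 275 and 224 counts, both highest in KO 1. Cmtr1 had 3090, 3446, 1730 and 2188 counts. These are not scaled for the totals, and KO 1 had the lowest total. B430305J03Rik was at 0 in SCR 2 (358, 0, 175 and 255). The fitted log2 differences of these genes, such as -1.66 for Snhg4 with an SE of 1.35, carry the zero and are not read as changes.

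**Figure D4:**
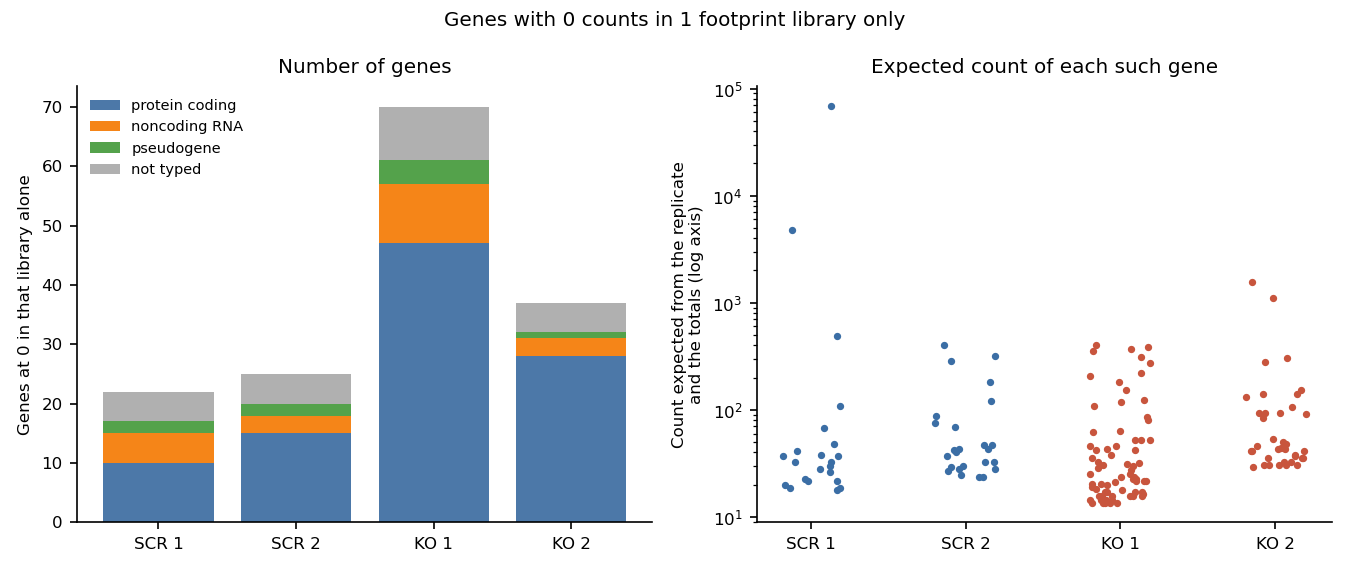
Left, the number of genes at 0 in 1 footprint library alone, by library and gene class: 22, 25, 70 and 37. Right, the count expected for each of them from the replicate and the totals, on a log axis, with Rnu11 highest at 68948.

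A further 32 genes (0.0578% of 55359) had 0 in both libraries of a genotype and at least 20 in each library of the other. In 28 of them the KO libraries were at 0, and in 4 the SCR libraries. The rule fixes the direction of these genes, so their calls are not read as results. The counts of calls given for all genes, gene classes and lists do include them. Folds are bounds against a floor of 3 counts per library. Counting error is all that floor covers. Itga3 (6.31 and 6.39 CPM in SCR) was at least 36.6-fold lower in KO cells, and its input RNA had 40 and 88 counts in SCR and 0 in both KO libraries. Of these 32 genes, Itga3 was the one with such a pattern in input RNA, named in that respect after its values were seen. Pcbd2 (159 and 197 counts, at least 34.5-fold lower) had 188, 191, 171 and 123 counts in the input RNA of SCR 1, SCR 2, KO 1 and KO 2, and Ggnbp1 (145 and 206, at least 33.9-fold lower) had 61, 88, 83 and 99 there. Of the 28 genes at 0 in KO, 16 had input RNA counts in all 4 libraries.

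Gm49369 had the highest level, 2560 and 2585 counts in SCR and 0 in KO (at least 502-fold lower), with 0 in all input RNA libraries. Gm47816 (263 and 336 counts, at least 58.0-fold lower) had at most 6 counts in input RNA. Asap3 had 37 and 1367 counts in SCR, a spread between replicates that kept it from passing (adjusted p = 0.183). Gm11100 (144 and 254 counts) overlaps Thoc7, and Ggnbp1 overlaps Bak1, in RefSeq. Gm6719 (27, 29, 0 and 0) overlaps the lncRNA gene Gm20756 (0, 0, 19 and 27), and the sum of the pair was 0.962, 0.926, 1.31 and 1.26 CPM. At 0 in both SCR libraries were RP23-199B10.2 (167 and 132 counts in KO), Nlrp4e (105 and 142), the pseudogene Selenok-ps8 (93 and 142) and the pseudogene Gm6071 (50 and 44). Selenok-ps8 and Gm6071 had 0 in every input RNA library.

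Genes at 0 also bore on the count of changed genes. Leaving out every gene at 0 in any footprint library before the fit took the calls from 387 of 16878 genes to 810 of 16413 (232 higher and 578 lower), and 360 of the 387 were among them. The other 27 were not tested there. With this filter 10 interferon-stimulated genes rose and 1 fell, in place of 5 and 0, and 9 transporters of the ATP-binding cassette list fell in place of 6. Calls of the extracellular matrix list went from 2 rises and 12 falls to 3 and 13. Leaving out noncoding genes and pseudogenes gave 699 calls of 12803 genes, of which 362 were among the 387.

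Noncoding RNA genes took 8.08% and 6.22% of the counts in SCR and 6.04% and 7.72% in KO footprints, and pseudogenes 5.14%, 5.16%, 5.71% and 5.83% in SCR 1, SCR 2, KO 1 and KO 2. Of 926 noncoding RNA genes tested 1 rose and 5 fell (0.648%), and of 3149 pseudogenes 11 rose and 8 fell (0.603%), against 2.93% of protein-coding genes. The median SE of a log2 difference was 0.37 in noncoding RNA genes and 0.10 in protein-coding ones. Gene types came from RefSeq or, for RNA family and mitochondrial names that it lacks, were assigned here by name. Of the genes tested 1034 had none. The 25 calls of noncoding genes and pseudogenes were 0 without KO footprints 1 (598 had an unadjusted p below 0.05), 12 without KO footprints 2, 24 without SCR footprints 1 and 8 without SCR footprints 2.

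**Figure D5:**
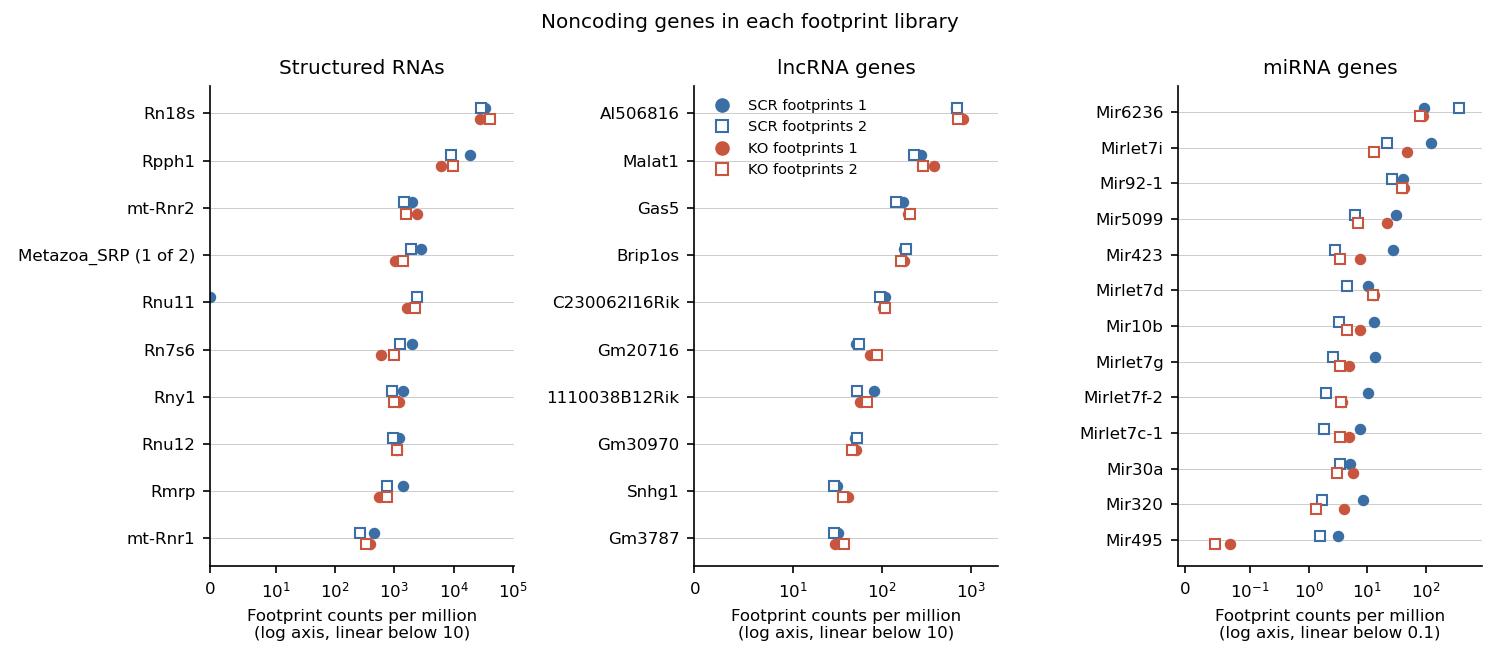
Footprint CPM of structured RNAs, of the 10 lncRNA genes of highest level and of 13 miRNA genes in each library (log axis, linear near 0), with circles for replicate 1 and squares for replicate 2. Rnu11 is at 0 in SCR 1, most miRNA genes are highest in SCR 1, and Mir495 is at 1 count in each KO library.

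Ribosomal RNA made up 3.73%, 3.07%, 3.15% and 4.39% of the counts in SCR 1, SCR 2, KO 1 and KO 2. Rn18s, the 18S RNA that METTL5 methylates, had 962999, 899690, 411873 and 891970 counts, a log2 difference of 0.04 with an SE of 0.25. Its 2 KO libraries lay on either side of the SCR libraries in CPM, and the count says nothing of the methylation. The RNA subunit of RNase P, Rpph1, had 541014, 288570, 87847 and 212986 counts (-0.94, SE 0.43, adjusted p = 0.258). Both Rpph1 replicates of a genotype differed widely, and the CPM values of the genotypes overlapped.

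The RNA of the signal recognition particle, which guides ribosomes making secreted proteins to the endoplasmic reticulum, had 2 entries named Metazoa_SRP with 78427, 60711, 14709 and 30355 counts and 76474, 58494, 13919 and 30802 counts. They had log2 differences of -1.07 (adjusted p = 0.0926) and -1.04 (adjusted p = 0.111), which did not pass. The 2 entries had similar counts, so they cannot be taken as 2 separate results. Their input RNA rose by 0.67 and 0.64, and the test of footprints against input RNA gave adjusted p-values of 0.0296 and 0.0385. Of 20 small structured RNAs tested none was called by edgeR (3 had an unadjusted p below 0.05, and DESeq2 called 1). In this list 17 lay below 0, with a median of -0.62, and 12 tested in input RNA had a median of 0.53. Its nearest to the threshold were Rny3, a Y RNA (-0.78, adjusted p = 0.0586), and Bc1 (-0.59, adjusted p = 0.0717). Among 207 snRNA genes, which serve splicing, the median was 0.36 and 1 fell; 161 lay above 0, beside 8619 of all 16878 genes. The entries hold near-identical copies, so they are fewer than 207 measurements. Of these, 4 U2 entries had nearly the same counts, from 25589, 29550, 21638 and 27780 in the first to 25415, 29394, 21499 and 27625 in the last, and are 1 measurement. They had adjusted p-values of 0.0722 and 0.0723. The U2 entry that fell had 75, 84, 15 and 24 counts (-1.41, adjusted p = 0.0450).

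Snord57, a guide RNA of 2'-O-methylation, was the 1 snoRNA gene called of 75 tested. It had 95.8 and 92.1 CPM in SCR against 65.9 and 58.9 CPM in KO cells (-0.70, SE 0.07, adjusted p = 0.0319), and at most 1 count in any input RNA library. Other guide RNAs of this kind, Snord104 (-0.28, adjusted p = 0.124) and Snord43 (0.01, adjusted p = 0.950), did not pass. Of 18 snoRNA host genes none was called by edgeR or DESeq2 and 5 had an unadjusted p below 0.05 (median 0.12, and below 0 in 1 of the fits that leave out a library). Zfas1 (0.33) and Snhg15 (-0.33) were among the hosts that did not pass.

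Long noncoding RNA genes took 0.303% and 0.293% of SCR and 0.340% and 0.315% of KO footprints, and 1 of 469 rose and 2 fell. Those that fell were Gm19531 (169 and 151 counts in SCR, 0 in KO), which overlaps the coding gene Gnb5, and D830050J10Rik (65, 59, 5 and 3 counts, -3.28, SE 0.43, adjusted p = 0.0431). The one that rose was Gm20756, described above beside the overlapping Gm6719. Gm19531 and Gm20756 were at 0 in both libraries of 1 genotype, which fixed the direction of their calls. These calls are not read as results about lncRNA genes. AI506816 had the highest level, with 19040, 21629, 11757 and 15533 counts (0.05, SE 0.08, adjusted p = 0.718). Malat1, a nuclear RNA (7634, 7101, 5568 and 6244 counts, 0.33, adjusted p = 0.271), Gas5, a snoRNA host (4823, 4506, 2900 and 4392, 0.25, adjusted p = 0.199), and Brip1os (4958, 5801, 2609 and 3514, -0.18, adjusted p = 0.187) did not pass. In CPM the genotypes overlapped for Brip1os, while KO lay above SCR for AI506816 (679, 691, 808 and 727 CPM), Malat1 and Gas5.

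The authors' deposited list of open reading frames (ORFs) held at least 1 ORF in 219 of the 469 lncRNA genes tested (46.7%), in 6 of 207 snRNA genes and in none of 76 miRNA genes. In the authors' deposited table of P-sites, the ribosome positions by reading frame, an ATG-started ORF of 45 nt in AI506816 (GRCm39, chr5:23915394-23916148, minus strand) had 3968, 613 and 929 P-sites in its 3 frames, so that 72.0% lay in the ORF's own frame. An ORF of equal length in 2700038G22Rik (chr5:24057119-24057728, plus strand) had 3961, 599 and 927 in the authors' deposited table, nearly the same numbers. The lncRNA 2410006H16Rik had 1268, 558 and 236 there, Snhg5 443, 152 and 83, and 1110038B12Rik 177, 38 and 25, by the authors' deposited table. Not all shares were that high: GTG-started ORFs of Brip1os had 47.6% and 46.9% of their P-sites in their own frame. The authors deposited these P-sites in separate lists, of ORFs larger in KO and of ORFs larger in SCR. The ORF of 2410006H16Rik was in the SCR list, and the others named here were in the KO list. The libraries behind the P-site counts are not named, so the counts describe the ORFs and not the genotypes.

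Pseudogenes are copies of other genes, and short footprints often match both. Cd63-ps (70087, 84590, 34785 and 47329 counts, -0.29, adjusted p = 0.166) and Gm10925 (66880, 63780, 31425 and 56398, 0.01) were the highest. Slc39a1-ps fell by 0.52 and Slc39a1, the zinc transporter it is named after, by 0.57. The pseudogenes Gm14138 (946, 1028, 718 and 1078) and Gm11263 (950, 1029, 716 and 1078) had nearly the same counts and rose by 0.48 and 0.47, which is 1 result. Gm14303 (-0.55), Gm5540 (-0.49), Gm9008 (-0.55) and Gm22451 (-2.07) fell, and Gm10167 (0.52), Gm18913 (0.71) and Gm8702 (0.69) rose. Which gene the reads of these entries came from cannot be told apart here.

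MicroRNA genes encode hairpins that are cut to RNAs of about the length of a footprint, so mature miRNAs can enter such libraries. Of 76 tested 1 was called, and 40 of the 67 with at least 20 counts in a library had their highest CPM in SCR 1. The let-7 genes had their highest summed level in that library, with 171 and 34.2 CPM in SCR against 81.3 and 41.0 CPM in KO footprints. Mirlet7i had 3374, 681, 701 and 278 counts in SCR 1, SCR 2, KO 1 and KO 2, and Mirlet7g 13.3, 2.56, 4.81 and 3.37 CPM. Mirlet7d had 10.1, 4.57, 12.9 and 12.4 CPM and was not highest in SCR 1. For Mirlet7i the counts of SCR 2 and KO 1 were alike and the genotypes overlapped in CPM. The 5 let-7 genes of highest level share the seed, bases 2 to 8, which pairs with target mRNAs. Their mature 5p sequences are shown because they are so alike that a short read can match several; they are from RefSeq (GRCm38.p6), with the seed in capitals.
let-7i-5p (chr10, minus strand): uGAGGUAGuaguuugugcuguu
let-7d-5p (chr13, minus strand): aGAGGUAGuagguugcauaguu
let-7g-5p (chr9, plus strand): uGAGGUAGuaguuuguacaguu
let-7f-5p (chrX, plus strand): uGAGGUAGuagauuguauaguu
let-7c-5p (chr16, plus strand): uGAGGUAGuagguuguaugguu

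Mir495, of a large cluster of imprinted miRNA genes, was the 1 miRNA gene called. It had 87 and 49 counts in SCR and 1 in each KO library (-5.35, SE 0.62, adjusted p = 0.0360), and 0 in every input RNA library. Meg3 and Rian, lncRNA genes of the same imprinted region, had log2 differences of 0.09 (adjusted p = 0.946) and 0.28 (adjusted p = 0.719). Both mature arms of Mir495 (GRCm38.p6, plus strand) are shown because the count does not say which was read, with bases 2 to 8 in capitals.
miR-495-5p, chr12:109718757-109718779: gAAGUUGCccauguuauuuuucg
miR-495-3p, chr12:109718795-109718816: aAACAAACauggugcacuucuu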

How the data were processed

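The authors deposited expected counts, whole and unscaled, for each gene in 4 footprint and 4 input RNA libraries. STAR 2.7.10a, StringTie 2.1.7 and GRCm39 are named in the submitters' processing notes without their roles. How reads that match several genes were shared is not known here. Footprint columns named POOL were taken as KO, since the others are named SCR. P-site counts per reading frame were deposited by the authors per ORF, with no library named, and their list of ORFs was used only to see which genes hold one.

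The counts were tested in R 4.3.3 with edgeR 4.0.16 (TMM scaling, filtering by expression, quasi-likelihood F test, Benjamini-Hochberg adjusted p below 0.05 over all genes tested), for footprints and input RNA apart, and for their difference as the interaction of assay and genotype. The scripts were tested on simulated data. DESeq2 1.42.0 and voom of limma 3.58.1 were alternatives, beside other scaling, filters, thinning, a replicate block and leaving out each library. Tables were made in Python 3.11.15. Gene types, which genes overlap, and sequences with their positions came from RefSeq (GRCm38.p6), not the build of the counts, and matched by name. RNA family and mitochondrial names that RefSeq lacks, such as U2, were given a type here by name.

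The members and the 29 gene lists were chosen with earlier results of these data known. Named were Mettl5, the 12 largest rises and 12 largest falls of at least 3 log2 CPM with both KO libraries on one side of both SCR libraries and no predicted-gene name, up to 4 called members of a list (otherwise up to 2), the 10 genes of highest expected count or level at 0 in 1 library or in both of a genotype, the 10 noncoding genes of highest level and up to 8 called per direction. Other genes were named after their values were seen, as were overlaps and copies. The bound on a gene at 0 covers counting error only.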

Additional observations from a re-analysis of the deposited data

How the results depend on the processing

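The 387 footprint calls became 1363 with DESeq2, 755 with no filter on low counts (82 higher and 673 lower, so 10.9% rises against 22.2%), 870 with a stricter filter, 810 without genes at 0 and 699 without noncoding genes; leaving out 1 library gave 25 to 128, and 42.1% of the 57 calls without KO footprints 2 were rises. The 25 noncoding calls became 114, 44, 74 and 66 under the first 4 of these and 0 to 24 without 1 library. Input RNA gave 1193 calls with no filter and 1031 to 4251 without 1 library, and the test of footprints against input RNA gave 1863 with DESeq2 and 0 to 1187 without 1 library. With the replicate block the footprint, noncoding and footprint-against-input counts were 0, 0 and 0 (3495, 638 and 4627 genes at an unadjusted p below 0.05), and the input count 3659. Whether same-numbered libraries were made together is not stated in the labels. Across the genes tested, the difference between SCR 1 and SCR 2 correlated with that between KO 1 and KO 2 at 0.06662. That value does not settle whether the libraries are paired. Genes at 0 in 1 library numbered 300 at a minimum of 10 counts and 55 at 50, and those at 0 in both libraries of a genotype 70, 14 and, after thinning, 19. Of 79 named genes that were called, 69, 64, 53 and 63 lost the call without KO 1, KO 2, SCR 1 and SCR 2, 79 with the block, and 2 to 6 with DESeq2's size factors, voom, thinning or no filter. The cause was not tested.

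Some genes not called with all libraries changed sign. Sfn (-0.17) was 0.06 with the block, 0.19 with voom and -0.89 to 1.27 without 1 library. The second Nnt entry (0.42) was -0.98 with the block, -4.90 with voom and -11.90 to 1.44 without 1 library. With no filter Rn18s was -0.02 and Gm10925 -0.05. Without 1 library the ranges were -0.28 to 0.30 for Rn18s, -0.16 to 0.16 for Gm10925, -0.25 to 0.35 for mt-Rnr2, -0.50 to 18.27 for Rnu11, -0.71 to 14.21 for Gm6951, -13.42 to 0.42 for Grk1, -0.19 to 11 for B430305J03Rik and -11.62 to 0.59 for Gm43064. The extreme ends of the last 5 genes, and the -11.90 of Nnt, come from fits whose 1 SCR or KO library is at 0, so they depend on the prior count and are not sizes of change; there Rnu11, Gm6951, Grk1, B430305J03Rik and Gm43064 passed the threshold (adjusted p = 0.0127, 0.00207, 0.0394, 0.00908 and 0.0447 by edgeR). Where an arm had 1 library, its spread was taken from the other. KO footprints 1 had the lowest total, which limits small counts there.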
